A study of Rattus norvegicus with 12 samples.

Results

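The 88 genes described here encode subunits of the 5 oxidative phosphorylation complexes in the choroid plexus of the rat, the tissue in the brain ventricles that secretes cerebrospinal fluid. They were chosen by symbol (NDUFA, NDUFB, NDUFC, NDUFS and NDUFV genes, SDHA to SDHD, UQCR genes, CYC1, COX4 to COX8 genes and ATP5 genes, without the assembly factors named NDUFAF and SDHAF), together with the 13 genes for proteins in mitochondrial DNA, and were further selected on their level, which had to average at least 60 TPM (transcripts scaled for length and library size) over all libraries. All 88 genes that carried such a symbol reached it, out of 32883 genes in the files and 1703 genes at that level, of which 1682 had a symbol. The lowest, NDUFA10L1, had a mean of 70.8 TPM, and no gene with such a symbol lay below the limit. Only 3627 of the 12513 genes that averaged at least 1 TPM had a symbol, however. A subunit gene below the limit could thus go unnamed, as could one among the genes at that level without a symbol. The set may not be complete, and sums and medians by complex cover the named genes only. Because the level chose the genes, their levels are a description. The rule itself uses no difference between phases. It was set with earlier results of these data known, however, and symbols came partly from the study's own list of genes that differ between phases. The nuclear genome encodes 75 of them (33 in complex I, 4 in complex II, 8 in complex III, 13 in complex IV and 17 in complex V) and the mitochondrial genome 13 (7, none, 1, 3 and 2). NDUFA4 was placed in complex IV, of which it is a subunit, and COX7A2L, also known as a factor of respiratory supercomplexes, and COX7A2L2 were placed there by name.

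The comparison addresses which transcripts of the choroid plexus differ between the light and the dark phase of the day. Whole choroid plexus from the lateral and 4th ventricles was taken from 12 male Sprague-Dawley rats aged 9 weeks, kept in a 12:12 light and dark cycle and anaesthetised with xylazine and ketamine, 6 in the light phase at zeitgeber time 8 (ZT8) and 6 in the dark phase at ZT20. Each rat gave 1 library. No genotype or drug separated the rats, so the hour of collection is the difference the labels give between the groups. Each phase is represented by 1 time point. Per the study's methods, dark phase samples were taken in darkness with a red lamp lit at times, so lighting at collection differed too.

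Oxidative phosphorylation passes electrons from NADH through complex I, and from succinate through complex II, to ubiquinone, on to complex III, cytochrome c and complex IV, where oxygen is reduced. Complexes I, III and IV pump protons across the inner mitochondrial membrane, and complex V, the ATP synthase, uses their return to make ATP. The core of the pumping complexes is encoded partly by mitochondrial DNA, and all of complex II by nuclear genes, so that subunits from separate genomes must be combined. The epithelial cells of the choroid plexus are known for many mitochondria, which supply the Na+/K+-ATPase and the other transporters behind fluid secretion.

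All 9 epithelial markers looked for had a mean of at least 60 TPM, among them TTR, which carries thyroxine, with 253710 TPM in light phase replicate 2 and 286835 to 309722 TPM in the other 11 libraries. Of the 9, KL, CLIC6 and OTX2 rose and AQP1 and SLC4A5 fell in the dark phase. Among all genes at or above 60 TPM, 9.86% rose and 13.2% fell. Light phase replicate 2 also had the highest scaling factor (1.045, against 0.939 to 1.017 in the others), and calls that change without it are given below. Relative read depth, estimated from the steps between low FPKM values, ran from 0.888 to 1.35 times that of the mean library, and depth in reads is unknown, so that the spread between rats served as the error throughout. Nothing but the whole tissue was measured, and in such samples fewer cells of a type cannot be told apart from less RNA per cell. Red cell RNA was uneven, as HBB alone, the 1 erythrocyte marker with a symbol, ranged from 1406 to 5535 TPM in the light and 839 to 2190 TPM in the dark phase. The fibroblast markers DCN and PDGFRA summed to 135 to 216 and 145 to 228 TPM, the endothelial marker PLVAP to 58.5 to 124 and 56.7 to 96.8 TPM, the mural cell marker RGS5 to 125 to 325 and 136 to 212 TPM, and the macrophage markers LYZ2 and CD74 to 589 to 952 and 650 to 865 TPM. All of these overlapped between phases. Below 60 TPM, the mural cell marker TAGLN (54.7 ± 23 and 31.3 ± 4.2 TPM) and the leukocyte marker PTPRC (2.47 ± 0.37 and 1.84 ± 0.32 TPM) fell in the dark phase and the others did not pass the test. In light phase replicate 2, HBB, RGS5, PLVAP, LYZ2, CD74, TAGLN and PTPRC all had their highest light phase value. HBB stood at 5535 TPM there and at 1406 to 1956 TPM in the other light phase libraries. For RGS5 these values were 325 and 125 to 141 TPM. DCN had its lowest light phase value in that library (74.1 TPM), and PDGFRA lay within the range of the others. The part of these markers in the results was not tested. Neuronal and striated muscle markers had no symbol paired with their identifiers and were not analysed here.

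Promoter windows of the nuclear genes, from 250 bases before to 50 bases after the annotated start, came from RefSeq on the GRCr8 assembly, a later build than the Rnor_6.0 genome used for the expression values. Of the 75 nuclear genes, 65 matched, 64 by symbol and 1 by a synonym. The windows were searched on both strands for the letters of 6 elements. AAGATGGC, part of the YY1 element, was the most frequent, in 14 of 65 windows (21.5%), against 3.17% of all 33469 rat windows and 7.02% of the windows of 1239 other genes above 60 TPM. AAGGTCA, the half-site bound by estrogen-related receptors, was in 10 (15.4%), against 4.61% and 2.34%. GCATGCGC, part of the NRF1 element, which overlaps its own reverse complement, was in 8 (12.3%), against 2.47% and 5.81%. ACCGGAAG, an ETS family element, was in 6 (9.23%), against 2.49% and 5.73%. Of the elements known from circadian control, the E-box CACGTG, which reads alike on both strands, was in 6 (9.23%), against 6.42% and 9.85%, and the D-box TTATGTAA was in 0, against 0.893% and 0.242%. The windows below show the 3 most frequent elements in genes to which the results return, and NDUFA9 is the only one of 3 called genes with a window (ATP5F1C, NDUFA9 and UQCRFS1) that held any of the letters. Each stretch is written 5′ to 3′ on the strand of the gene, with the element, or its reverse complement, in capitals. No call is drawn from a match, which shows letters and not binding.
NDUFA9 (chr4:161374142-161374171, minus strand, YY1 letters): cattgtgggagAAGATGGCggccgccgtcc
SDHC (chr13:86098004-86098033, minus strand, YY1 letters): ggccggaactcAAGATGGCtgcgctcttgc
ATP5MF (chr12:14535455-14535484, plus strand, YY1 letters): cggacaacaggacttcAAGATGGCgtctat
SDHD (chr8:59850592-59850621, minus strand, estrogen-related receptor half-site): ttccgggccgtagggTGACCTTgagccctc
ATP5MC3 (chr3:79220703-79220732, minus strand, estrogen-related receptor half-site): ttgttacaaagTGACCTTgagcgtcttccc
COX8A (chr1:213833594-213833623, minus strand, estrogen-related receptor half-site): tcttgacttccTGACCTTgggcttcggctg
ATP5MC2 (chr7:135678254-135678283, minus strand, NRF1 letters): gctctagtcgcGCATGCGCagagccttctc
Of the 14 matches of the YY1 letters, 12 lay on the strand of the gene and 10 began at or after the annotated start, with positions from -183 to 36 relative to it. The 14 genes had a median log2 difference of -0.08 (dark minus light), and the other matched genes -0.05.

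Together the 88 genes made up a large share of the transcriptome. The mitochondrially encoded genes summed to 80333 ± 7697 TPM in the light and 78132 ± 7874 TPM in the dark phase (mean ± SD, n = 6), or 8.03% and 7.81% of all TPM. The 75 nuclear genes summed to 40258 ± 1755 and 39379 ± 1230 TPM, or 4.03% and 3.94%. The mitochondrial sum was 2.00 ± 0.25 times the nuclear sum in the light phase and 1.98 ± 0.19 times in the dark phase. Within the light phase this ratio ran from 1.61 to 2.35, so that rats of 1 phase differed far more than the phase means. How RNA was selected for the libraries is not given in the sources used here. The level of mitochondrial relative to nuclear transcripts depends on that step.

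**Figure D1:**
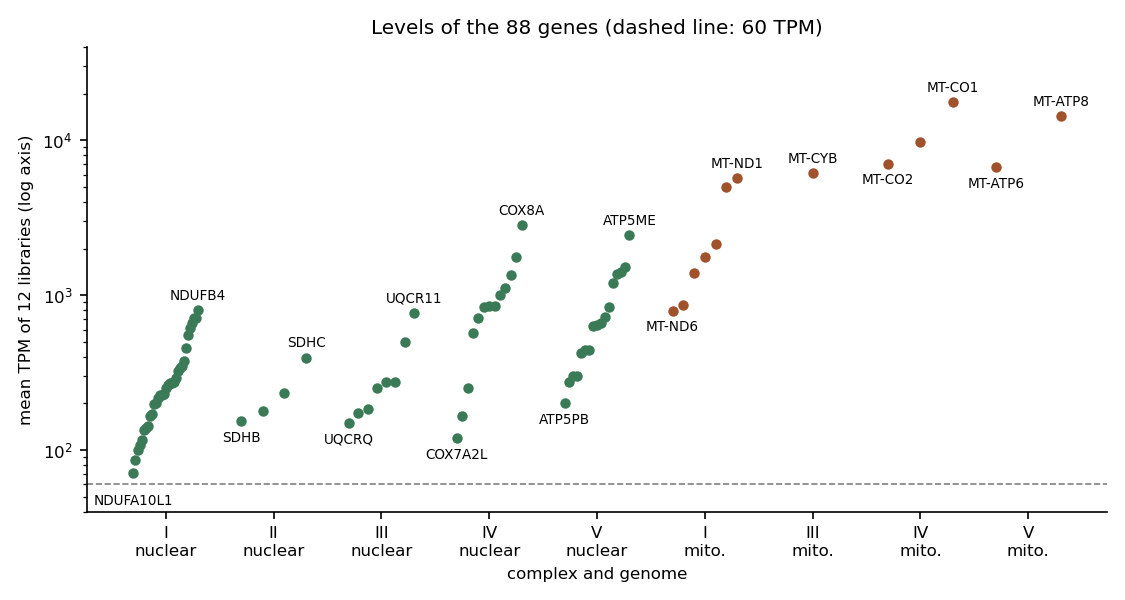
Mean TPM of each of the 88 genes over 12 libraries (log axis), ordered within each complex and genome, with the highest and lowest gene of each class named and the 60 TPM limit dashed. The mitochondrial genes start at 794 TPM (MT-ND6), a level that 15 of 75 nuclear genes exceed.

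TPM is scaled by transcript length, so levels of different genes can be set side by side, though short transcripts are measured less well. MT-CO1, the catalytic subunit of complex IV, was the highest member in 10 of 12 libraries, with a mean of 17558 TPM. MT-ATP8, a small subunit of the ATP synthase, followed with 14347 TPM. It overlaps MT-ATP6 on a shared transcript, so the split of their reads, and with it the rank of MT-ATP8, is set by the counting. The lowest mitochondrial gene was MT-ND6, the one protein gene on the light strand, with 794 TPM. Among nuclear genes COX8A, a small subunit of complex IV, led in 12 of 12 libraries with a mean of 2835 TPM, followed by ATP5ME, subunit e of the ATP synthase, with 2439 TPM. The median nuclear gene of complex IV had 846 TPM and of complex V 643 TPM, whereas the medians of complexes III, I and II were 262, 250 and 205 TPM. Within complex I the 7 nuclear core subunits, which hold the flavin and the iron-sulfur clusters, had a median of 139 TPM, and the 26 accessory subunits 274 TPM. Ranges within each class were wide and overlapped, as nuclear complex I ran from NDUFA10L1 at 70.8 TPM to NDUFB4 at 798 TPM.

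**Figure D2:**
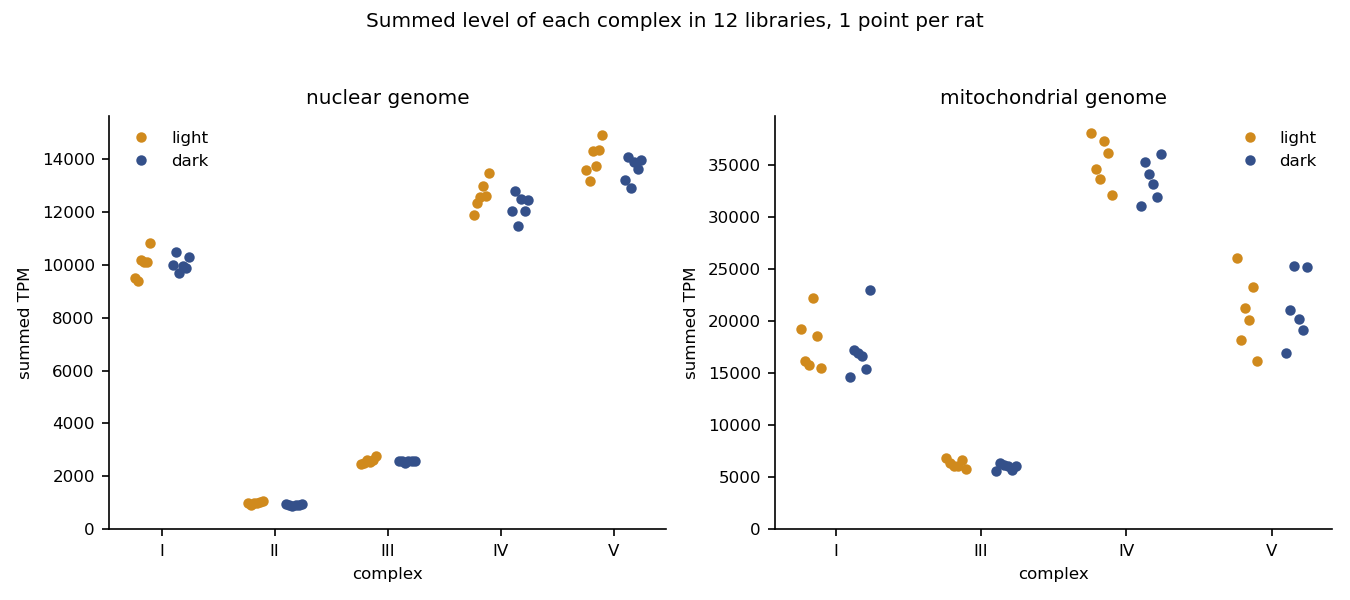
Summed TPM of the genes of each complex, nuclear at left and mitochondrial at right, with 1 point per rat and both axes starting at 0. The phases overlap in every complex, and the points of mitochondrial complexes I and V spread the most.

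Summed by complex, the phases overlapped everywhere. Nuclear complex I stood at 10022 ± 525 TPM in the light and 10048 ± 296 TPM in the dark phase, and nuclear complex III at 2581 ± 108 and 2567 ± 42 TPM. Nuclear complex II stood at 987 ± 46 and 928 ± 24 TPM, nuclear complex IV at 12649 ± 545 and 12213 ± 466 TPM, and nuclear complex V at 14019 ± 631 and 13624 ± 462 TPM. These sums are descriptions and were not tested.

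In the test of phase differences, 5 of the 75 nuclear genes fell in the dark phase and none rose. They were ATP5F1C, UQCRFS1, NDUFB9, NDUFA9 and CYC1, each lower by less than 14%, in complexes I, III and V. None of the 13 mitochondrial genes passed the test in either direction. The test was limma on log2 of scaled TPM, dark minus light phase, over 12513 genes with a Benjamini-Hochberg false discovery rate (FDR) of 0.05. Beside these counts, 8.36% of all tested genes fell in the dark phase and 9.32% rose, and among the 1703 genes at or above 60 TPM, as these members are, 13.2% fell and 9.86% rose. The 5 genes amount to 6.67% of the nuclear and 5.68% of all members, below both shares of genes that fell, and no test of that count was made. At an unadjusted p under 0.05 the same limma fit held 12 nuclear genes and 1 mitochondrial gene, MT-ND3, all lower in the dark phase. Leaving out light phase replicate 2 gave 10 nuclear genes in place of 5, all lower in the dark phase, and leaving out any other library 2 to 4. In the TPM as deposited, every light phase library lay above every dark phase library in 3 members (ATP5F1C, NDUFB9 and CYC1). This arrangement was found in 3.14% of all tested genes. In 0 members did every dark phase library lie above, against 5.12% of all tested genes. After the scaling used for the test, CYC1 overlapped and UQCRFS1 did not.

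**Figure D3:**
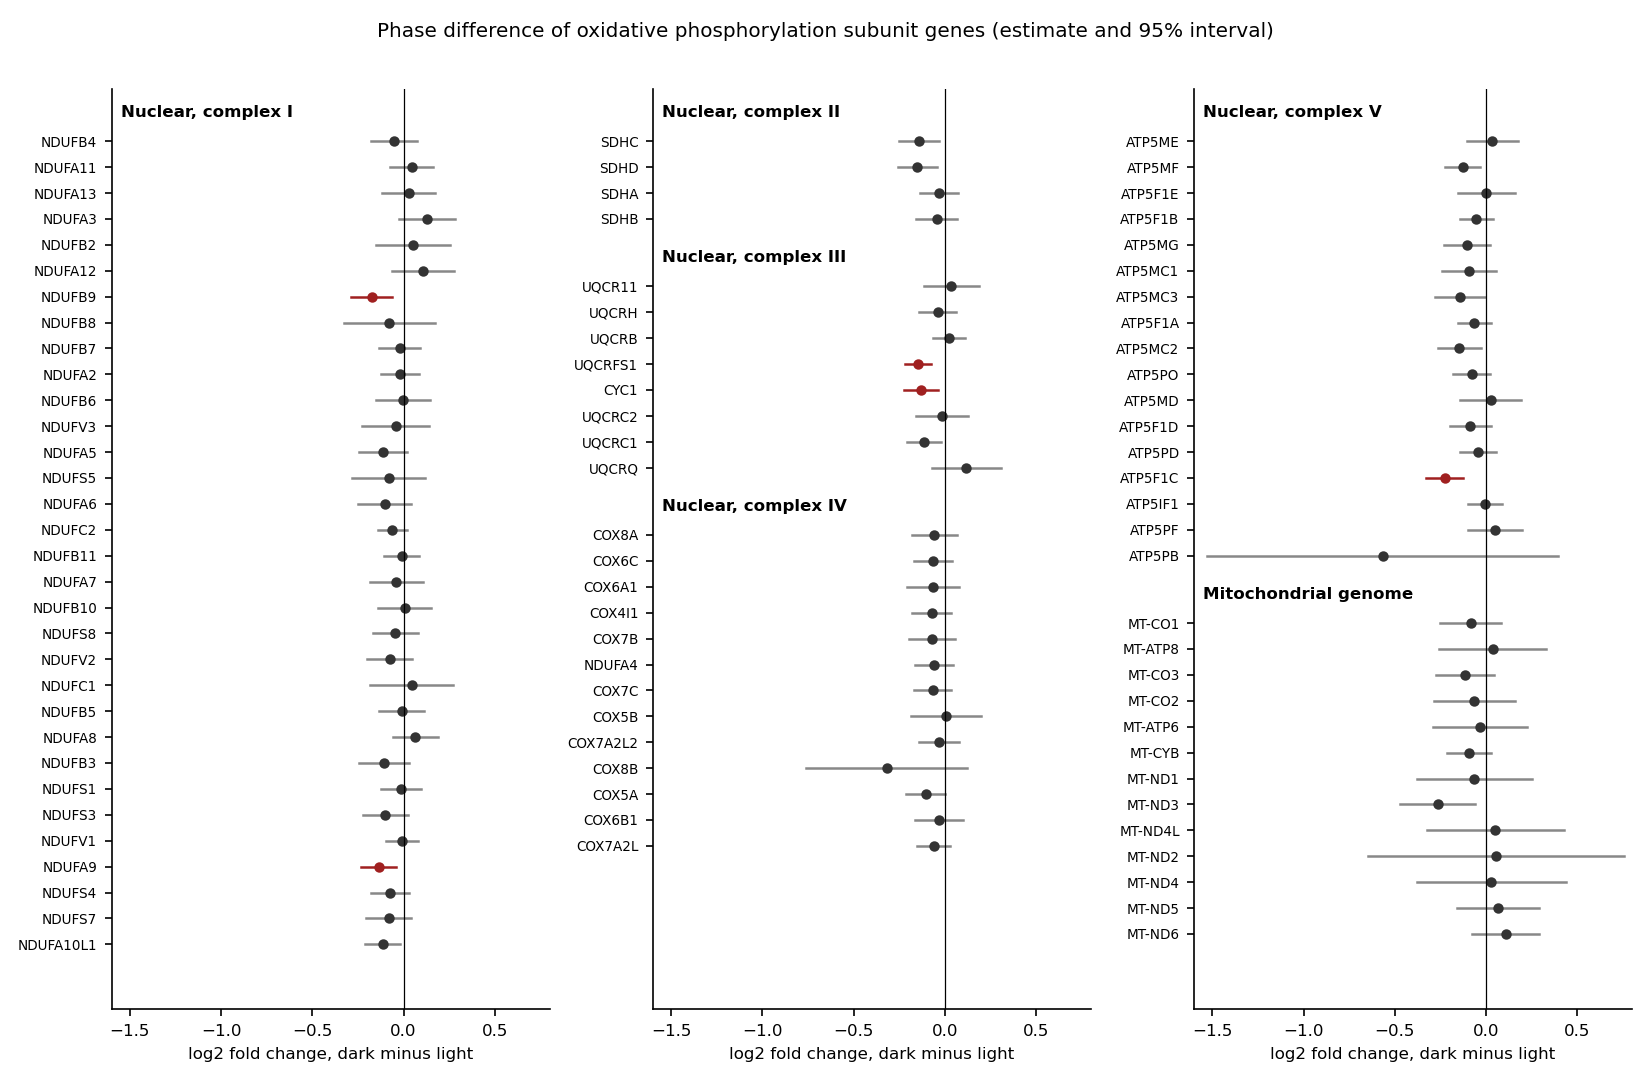
Log2 fold change of the genes reported, dark minus light phase, with its 95% interval, by complex and genome and ordered by mean level within each class. The 5 genes past an FDR of 0.05 are red and lie to the left of 0, ATP5PB has a wide interval through 1 library, and the mitochondrial genes have wider intervals than most nuclear ones.

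The differences were small and mostly of 1 sign. The estimate lay below 0 for 59 of 75 nuclear genes (78.7%), compared with 59.7% of all genes above 60 TPM and 52.6% of all tested genes. Their median log2 difference was -0.06, that of genes above 60 TPM -0.03 and that of all tested genes -0.01. The 95% interval lay wholly within a 25% difference (0.32 on the log2 scale) for 71 of 75 nuclear genes and 7 of 13 mitochondrial genes, compared with 77.0% of genes above 60 TPM. The median coefficient of variation between rats of one phase was 5.35% for the nuclear genes, against 5.99% for all genes above 60 TPM, while that of the mitochondrial genes was 13.2%. Members of 1 complex were measured in the same libraries and moved with the same rats: light phase replicate 6 held the highest light phase value for 53 of 75 nuclear genes, and dark phase replicate 3 the lowest dark phase value for 37. The shared sign is thus not 59 separate observations. Without light phase replicate 6 the nuclear median was -0.03, with 54 of 75 below 0.

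The sign also depended on a property of the libraries that moved with the phase. Total FPKM divided by total TPM, which falls as the mean effective length of the transcripts in a library grows, was 0.953 to 0.987 in the light and 0.934 to 0.960 in the dark phase. With that ratio as a covariate, 342 genes were called in the whole table in place of 2212, no member was called, and the nuclear median became 0.06, with 17 of 75 below 0. The 5 called genes kept a negative estimate in that fit, from -0.13 for ATP5F1C to -0.02 for CYC1. The ratio nearly separates the phases, and their parts in the differences cannot be told apart in these samples.

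**Figure D4:**
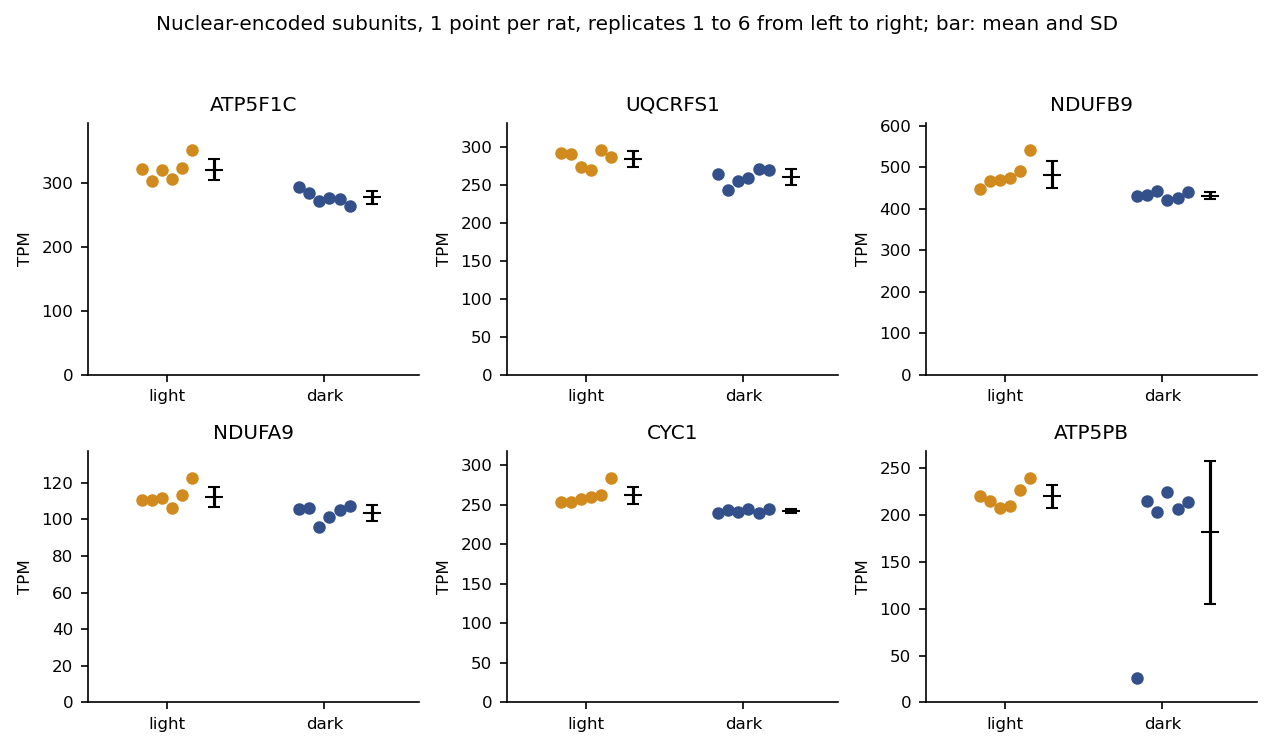
TPM in each of the 12 libraries for the 5 genes past the threshold and for ATP5PB, with replicates 1 to 6 of each phase from left to right, the mean and SD beside them, and axes from 0. ATP5F1C, NDUFB9 and CYC1 show no overlap between phases in these TPM as deposited, and ATP5PB stands at 26.0 TPM in dark phase replicate 1 against 204 to 239 TPM in the other 11 libraries.

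Complex I takes electrons from NADH, and 2 of its 33 nuclear genes fell in the dark phase. That is 6.06% of them, against 13.2% of all genes at or above 60 TPM. NDUFB9, an accessory subunit of the membrane arm, had 447 TPM in the lowest, 472 in the median and 541 in the highest light phase library, and 420, 432 and 442 TPM in the dark phase. No dark phase library reached the lowest light phase value. The mean was 482 ± 32 TPM in the light and 432 ± 8.1 TPM in the dark phase, a log2 difference of -0.17 (SE 0.052, limma FDR 0.033). NDUFA9, an accessory subunit near the site where ubiquinone binds, had 106, 111 and 123 TPM (lowest, median and highest) in the light and 95.8, 105 and 107 TPM in the dark phase. Its groups overlapped, and light phase replicate 6 lay above the rest. The log2 difference was -0.14 (SE 0.044, limma FDR 0.047). Both calls were sensitive to single rats, as NDUFB9 stayed called in 4 and NDUFA9 in 1 of 12 fits that each left out 1 library.

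The other 31 nuclear genes of complex I did not pass. The core subunits had estimates between -0.10 (NDUFS3, 128 to 148 TPM in the light and 122 to 142 TPM in the dark phase) and -0.01 (NDUFV1, which holds the flavin, 109 to 123 and 113 to 121 TPM). The highest estimate of the nuclear members was that of NDUFA3, an accessory subunit, with 622 ± 43 TPM in the light and 690 ± 58 TPM in the dark phase (log2 difference 0.13, SE 0.070, limma FDR 0.24). NDUFB4, the most abundant, had 741 to 895 TPM in the light and 729 to 854 TPM in the dark phase. NDUFA10L1, named as a copy of the NDUFA10 subunit and so of uncertain assignment where reads could be shared, had 73.2 ± 4.0 and 68.5 ± 2.4 TPM (log2 difference -0.11, limma FDR 0.0997).

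Complex II, succinate dehydrogenase, also works in the citric acid cycle and is encoded by 4 nuclear genes, none of which passed. Its membrane anchors SDHC and SDHD, which hold the ubiquinone site, lay just outside the threshold. SDHD had 225, 244 and 257 TPM (lowest, median and highest) in the light and 210, 222 and 229 TPM in the dark phase, a log2 difference of -0.15 (SE 0.049, limma FDR 0.051). Its groups overlapped only in the range from 225 to 229 TPM. SDHC had 411 ± 20.5 and 377 ± 9.1 TPM (log2 difference -0.14, SE 0.050, limma FDR 0.069). The catalytic subunits were closer between phases: SDHA, the flavoprotein, had 166 to 189 and 168 to 190 TPM, and SDHB, the iron-sulfur subunit, 145 to 170 and 145 to 159 TPM, with log2 differences of -0.03 and -0.05. That anchors and catalytic subunits differ from each other in their response was not tested.

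Complex III passes electrons from ubiquinol to cytochrome c. Its 2 called nuclear genes, UQCRFS1 and CYC1, encode both of its nuclear-encoded electron carriers, the Rieske iron-sulfur protein and cytochrome c1. UQCRFS1 had 270, 289 and 296 TPM (lowest, median and highest) in the light and 244, 262 and 272 TPM in the dark phase. The groups overlapped narrowly in the TPM as deposited and did not overlap after scaling. The mean was 285 ± 11 and 261 ± 10 TPM, and the log2 difference -0.15 (SE 0.034, limma FDR 0.010), which passed in 12 of 12 fits that left out a library. CYC1 had 253, 258 and 283 TPM in the light and 239, 242 and 245 TPM in the dark phase, and light phase replicate 6 again lay far above. The CYC1 groups did not overlap in the TPM as deposited but did after scaling. Its log2 difference was -0.13 (SE 0.043, limma FDR 0.048), and it passed in 2 of those 12 fits. The 6 other nuclear genes did not pass. They had estimates from -0.11 (UQCRC1, a core protein) to 0.12 (UQCRQ, a small subunit, 143 ± 18 and 157 ± 6.3 TPM), and UQCR11, the most abundant, had 682 to 838 and 719 to 831 TPM. The third electron carrier of the complex, MT-CYB, is mitochondrial and had 6296 ± 384 and 5984 ± 279 TPM (log2 difference -0.09, limma FDR 0.29). CYCS, the soluble cytochrome c that takes up the electrons, had 286 ± 21 and 280 ± 6.7 TPM (log2 difference -0.05, limma FDR 0.54).

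Complex IV, cytochrome c oxidase, had no called gene among its 13 nuclear members, none at an unadjusted p under 0.05 in the limma fit, and 12 of the 13 estimates lay between -0.11 and 0.01. COX8A, the most abundant, had 2665, 2866 and 3091 TPM (lowest, median and highest) in the light and 2653, 2826 and 2907 TPM in the dark phase (log2 difference -0.06, limma FDR 0.54). COX4I1, a nuclear subunit that joins MT-CO1 early in assembly, had 1047 to 1185 and 1047 to 1173 TPM. The exception in spread was COX8B, known as the heart and muscle form of the same subunit as COX8A. It had 415, 577 and 885 TPM in the light and 348, 494 and 679 TPM in the dark phase, a mean of 633 ± 188 against 509 ± 123 TPM. Rats within one phase differed by more than the phases did, and the log2 difference of -0.32 had a 95% interval from -0.76 to 0.12 (limma FDR 0.31). COX8A exceeded COX8B in 12 of 12 libraries, with a ratio of COX8B to COX8A of 0.148 to 0.315 in the light and 0.131 to 0.239 in the dark phase. COX7A2L had 118 to 130 and 110 to 123 TPM, and COX7A2L2, listed as a further gene of that name, was 5.90 ± 0.33 and 6.01 ± 0.13 times as high, so that reads shared between them would matter more for COX7A2L.

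Complex V, the ATP synthase, held the member with the smallest FDR. ATP5F1C encodes the gamma subunit, the central shaft that turns inside the catalytic head. It had 304, 322 and 352 TPM (lowest, median and highest) in the light and 265, 276 and 295 TPM in the dark phase. No dark phase library reached the lowest light phase one. The mean fell by 13.5%, from 322 ± 17 to 278 ± 10 TPM, with a log2 difference of -0.23 (SE 0.048, 95% interval -0.33 to -0.12, limma FDR 0.0059), and the call stood in 12 of 12 fits that left out a library. Its partners in the catalytic head gave smaller estimates: ATP5F1A and ATP5F1B, which form the hexamer that makes ATP, had 637 to 701 and 624 to 684 TPM, and 1320 to 1441 and 1288 to 1384 TPM, with log2 differences of -0.06 and -0.05 (limma FDR 0.33 and 0.41). ATP5F1D and ATP5F1E, the remaining subunits of the shaft, had log2 differences of -0.09 and 0.0017. Whether ATP5F1C differs from them was not tested.

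In the membrane part of complex V, ATP5MF, subunit f, had 1572 ± 52 and 1459 ± 67 TPM (log2 difference -0.13, limma FDR 0.065). The 3 genes ATP5MC1, ATP5MC2 and ATP5MC3, which encode the same mature c subunit behind different targeting peptides, summed to 2291 ± 156 and 2126 ± 99 TPM. ATP5MC1 exceeded ATP5MC3 and ATP5MC3 exceeded ATP5MC2 in 12 of 12 libraries. ATP5MC1 had 861 ± 74 and 815 ± 31 TPM, ATP5MC3 759 ± 56 and 696 ± 44 TPM, and ATP5MC2 671 ± 40 and 615 ± 29 TPM, with log2 differences of -0.10, -0.14 and -0.15 (limma FDR 0.37, 0.14 and 0.09). Without light phase replicate 2, ATP5MC2 and ATP5MC3 passed the threshold, as did ATP5MF, SDHC and SDHD. The genes have near-identical coding ends and known pseudogenes, so their split depends on how shared reads were assigned. ATP5ME had 2151 to 2538 and 2268 to 2692 TPM. ATP5IF1, which inhibits the enzyme when it would run backwards, had 271 to 317 and 278 to 335 TPM (log2 difference -0.0047, limma FDR 0.96).

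ATP5PB, subunit b of the peripheral stalk, had the largest estimate of all members, and it rested on 1 library. It stood at 26.0 TPM in dark phase replicate 1 and at 204 to 239 TPM in the other 11 libraries. With all 12 the log2 difference was -0.57 (95% interval -1.53 to 0.39, limma FDR 0.42), and without dark phase replicate 1 it was -0.06 (limma FDR 0.44). Such a drop is rare at this level: 6 of 1703 genes above 60 TPM had 1 library more than 4 times below the next lowest of its phase, and in 1 of them, ATP5PB itself, it was dark phase replicate 1. No other gene of complex V stood apart in that library.

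The 13 mitochondrial genes encode the hydrophobic core of complexes I, III, IV and V and are transcribed together as long precursors that are then cut. None passed the test. MT-ND3 was nearest, with 4848, 5378 and 5895 TPM (lowest, median and highest) in the light and 4014, 4285 and 5575 TPM in the dark phase. Of the dark phase libraries, replicates 2 and 4 lay within the light phase range and the rest did not. The log2 difference was -0.27 (SE 0.095, limma FDR 0.072), and it passed without dark phase replicate 2 or without dark phase replicate 4. In complex IV, MT-CO1 had 16613 to 20533 and 16181 to 18981 TPM, MT-CO2 5656 to 8731 and 5839 to 7452 TPM, and MT-CO3 8992 to 11608 and 8376 to 10572 TPM, with log2 differences of -0.08, -0.06 and -0.12. In complex V, MT-ATP6 had 5410 to 8044 and 5474 to 7868 TPM and MT-ATP8 10746 to 17981 and 11410 to 17883 TPM, with log2 differences of -0.03 and 0.04. In complex I, MT-ND1 had 4805 to 7991 and 4730 to 7779 TPM, MT-ND4 1007 to 1727 and 1117 to 2110 TPM, and MT-ND4L 1547 to 2531 and 1789 to 3097 TPM. MT-ND5 had 744 to 987 and 756 to 1116 TPM, and MT-ND6 672 to 895 and 743 to 980 TPM, with the highest mitochondrial estimate, 0.11 (limma FDR 0.42).

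**Figure D5:**
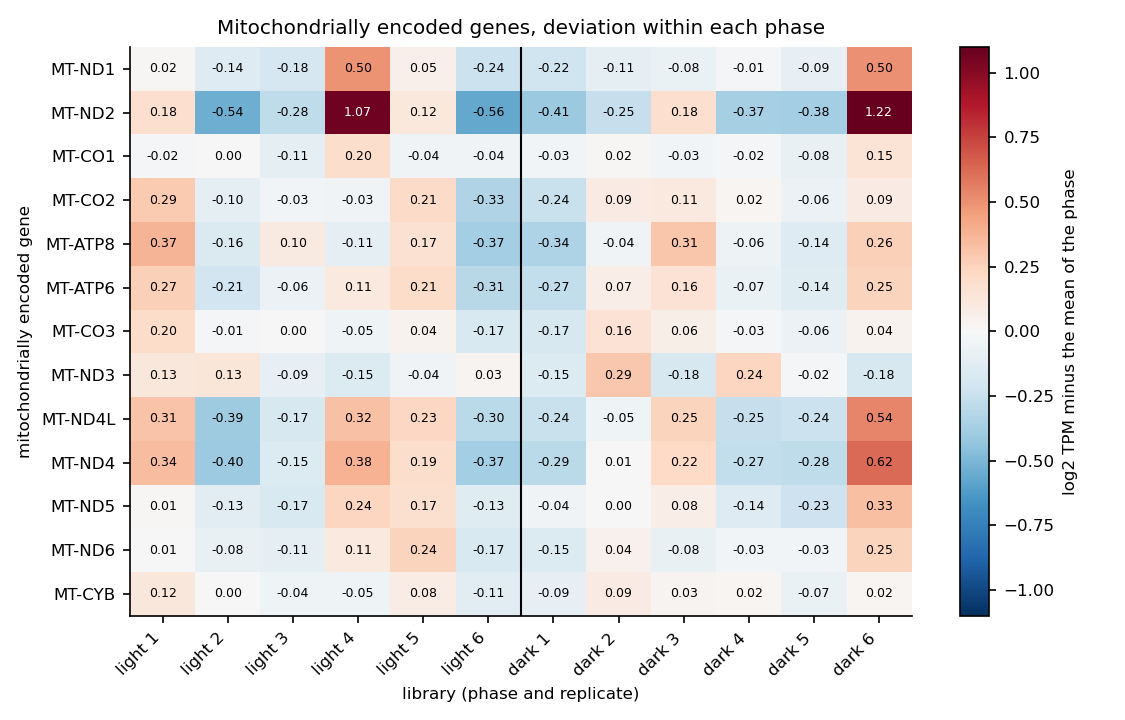
Log2 TPM of each mitochondrial gene minus its mean over the 6 libraries of the same phase, one column per library and rows in the order of the genes on mitochondrial DNA. MT-ND2 reaches 1.07 in light phase replicate 4 and 1.22 in dark phase replicate 6, where MT-ND1, MT-ND4 and MT-ND4L are also high and MT-ND3 is low, and light phase replicate 6 and dark phase replicate 1 are low for most genes.

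In each of these genes the range between rats of one phase was wider than the difference between the phase means, and the genes did not move as 1 block. The difference came closest to the range in MT-ND3, with 5404 ± 434 TPM in the light and 4588 ± 705 TPM in the dark phase. MT-ND2, a membrane subunit of complex I, had 1060, 1495 and 3293 TPM (lowest, median and highest) in the light and 1241, 1331 and 3840 TPM in the dark phase. The highest value came from light phase replicate 4 and dark phase replicate 6, and its coefficient of variation within a phase was 52.8%, compared with 5.38% for MT-CYB. In the light phase, replicate 4 was highest for 6 of the 13 genes and replicate 1 for 5, and in the dark phase replicate 6 was highest for 8. Low values came from few rats too, as light phase replicate 6 was lowest for 8 genes and dark phase replicate 1 for 9. Light phase replicate 6 was at the same time the highest light phase library for 53 of 75 nuclear genes and for none of the mitochondrial ones, and had the lowest ratio of mitochondrial to nuclear TPM, 1.61. Relative to MT-ND3, MT-ND2 ranged from 0.183 to 0.679 in the light and from 0.238 to 0.956 in the dark phase. Pairs that share a transcript were steadier: MT-ATP8 was 2.08 ± 0.19 and 2.18 ± 0.13 times MT-ATP6, and MT-ND4L 1.53 ± 0.053 and 1.56 ± 0.060 times MT-ND4. The genes of each pair overlap and stay on 1 transcript, so that the split of their reads is set by the counting. MT-ND6 lies opposite the other genes, and whether reads were counted by strand is not given in the sources used here.

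Genes that serve these complexes were looked up by list, although symbols were paired with identifiers for only some of them, mostly at 60 TPM or more. Among all genes at or above 60 TPM, 13.2% fell and 9.86% rose in the dark phase, and no count from these lists was tested against those shares. Of 47 assembly factors 8 were at that level, of which 1 rose and none fell: COA5, a complex IV assembly factor, had 77.3 ± 5.6 TPM in the light and 90.6 ± 3.2 TPM in the dark phase without overlap (log2 difference 0.21, limma FDR 0.004). Of 10 electron carriers and nucleotide exchangers 7 were at that level, and 1 fell. This was SLC25A4, an ADP/ATP carrier that exports the ATP made by complex V, with 522 ± 17 and 477 ± 11 TPM (log2 difference -0.15, limma FDR 0.017). Its groups did not overlap in the TPM as deposited but did after scaling. The other ADP/ATP carrier, SLC25A5, had 407 ± 22 and 382 ± 19 TPM (limma FDR 0.077), and the phosphate carrier SLC25A3 659 ± 7.7 and 648 ± 24 TPM. UCP2, of the same list, had 170 ± 34 and 134 ± 17 TPM with overlap (log2 difference -0.34, limma FDR 0.055). Of 20 markers of mitochondrial membranes and matrix 11 were at that level, of which 3 fell and none rose. TOMM20, an import receptor of the outer membrane, had 225 ± 7.4 and 196 ± 4.6 TPM (log2 difference -0.22), HSPA9, the matrix chaperone, 216 ± 8.0 and 193 ± 8.7 TPM (-0.19), and TOMM22, another import receptor of the outer membrane, 70.2 ± 3.7 and 65.2 ± 1.5 TPM (-0.12).

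Of 24 regulators of mitochondrial gene expression 1 was at 60 TPM or more. ESRRA, the estrogen-related receptor whose half-site was searched above, rose from 75.7 ± 5.7 to 88.0 ± 2.7 TPM (log2 difference 0.20, limma FDR 0.031). Its groups did not overlap in the TPM as deposited but did after scaling. The 10 members with that half-site had a median log2 difference of -0.06, and the other matched members -0.05. Below 60 TPM, symbols came partly from the study's own list of genes that differ between phases, so that the genes named there were chosen for a difference. Of these, PPARGC1A, the coactivator of estrogen-related receptors, had 10.6 ± 0.87 and 12.7 ± 1.3 TPM (log2 difference 0.23, limma FDR 0.041). POLG, the polymerase that copies mitochondrial DNA, had 10.7 ± 1.2 and 12.8 ± 0.80 TPM (0.23, limma FDR 0.018). SLIRP, which stabilises mitochondrial messenger RNAs, had 8.65 ± 0.39 and 7.04 ± 0.38 TPM (-0.30, limma FDR 0.004). Of assembly factors below 60 TPM, COX10 had 7.70 ± 0.46 and 9.34 ± 0.53 TPM (0.24, limma FDR 0.013) and TMEM126B 12.3 ± 1.2 and 10.3 ± 0.80 TPM (-0.26, limma FDR 0.019).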

How the data were processed

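Choroid plexus RNA of 12 rats (6 light phase, 6 dark phase, 1 library per rat, groups from the labels) was analysed. Per the labels and the study's methods, libraries were made with the NEB Next Ultra RNA kit and sequenced as paired-end reads, and the authors aligned them with STAR 2.7.9a to Rnor_6.0 and quantified genes with RSEM 1.3.3. TPM is the unit the authors obtained from RSEM and deposited. Deposited FPKM, from the same run, served here for estimating relative depth, for its total relative to that of TPM, and as an alternative unit. The authors tested read counts with DESeq2. Counts were not analysed here. Beyond the use of RSEM, how reads of similar genes were assigned is not given in the sources used here.

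Each library was scaled by a trimmed mean of ratios (30% of ratios and 5% of levels trimmed at each end). Of 32883 genes, the 12513 averaging at least 1 TPM were fitted with limma 3.58.1 (R 4.3.3) on log2 of scaled TPM plus 0.5, with phase alone in the model, a variance trend and Benjamini-Hochberg adjustment over all genes at 0.05. A fold change is on the log2(scaled TPM + 0.5) scale. Python 3.11.15, numpy 2.4.6, pandas 2.3.3 and matplotlib 3.10.9 were used for tables and figures. TPM values in the text are as deposited. The members and the lists were chosen with earlier results of these data known. Symbols come from supplementary tables of the study, which pair 3627 of the tested genes, so most genes below 60 TPM could not be named. Members named are those past the threshold, the highest, lowest and largest difference of each complex and genome, the mitochondrial genes, and members with a close copy. Other members were named for their role after their values were seen. Of the pathway lists, genes past the threshold and CYCS are named by rule, and SLC25A3, SLC25A5 and UCP2 were added after their values were seen. Cell type markers are named to describe the tissue.

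The fit was tested on simulated data before use. Of 100 genes at 60 TPM or more given a log2 difference of 0.25 in size, 60% were called. Of 100 given 0.5, 95% were called. A gene that did not pass may thus still differ by a small amount. The simulation changed 100 of 12513 genes at each size, with noise drawn separately for each gene. In the data 2212 genes were called and members moved with the same rats, so these shares need not hold there. Correlations between libraries were 0.959 to 0.983 and no files were identical. Alternatives were another scaling, unit, pseudocount, filter on low values, replicate block, sample weights, robust variances, total FPKM over total TPM as a covariate, and leaving out each library. Single values of a few genes are not reported here.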

Additional observations from a re-analysis of the deposited data

Results flagged for a closer look

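Of 176 groups examined (88 genes in 2 phases), 12 held 1 library that stood apart from the other 5 by Dixon's criterion, where chance gives about 1 in 20 groups, or 8.8. Mitochondrial genes account for 5 of them, all in light phase replicate 4 or dark phase replicate 6: MT-CO1 at 20533 TPM in light phase replicate 4 (others 16613 to 17976), MT-ND1 at 7991 TPM in light phase replicate 4 (others 4805 to 5887) and 7779 TPM in dark phase replicate 6 (others 4730 to 5447), and MT-ND2 at 3293 TPM in light phase replicate 4 (others 1060 to 1776) and 3840 TPM in dark phase replicate 6 (others 1241 to 1870). ATP5PB stood at 26.0 TPM in dark phase replicate 1 (others 204 to 225), the widest gap. NDUFA6 was low in the same library, at 225 TPM (others 260 to 273). In light phase replicate 6 CYC1 reached 283 TPM (others 253 to 262) and COX7A2L 130 TPM (others 118 to 122). In dark phase replicate 2 COX5B reached 947 TPM (others 796 to 848) and NDUFS5 335 TPM (others 244 to 274), and in dark phase replicate 3 NDUFB7 was low at 327 TPM (others 347 to 356).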

How the results depend on the processing

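No nuclear member was called higher in the dark phase under any of the 24 alternatives. The number called lower in the dark phase, 5, became 2 with no filter on low values (18633 genes tested), 2 with the replicate block, 10 with sample weights and 0 with total FPKM over total TPM as a covariate, a fit that called 342 genes in all in place of 2212. Leaving out 1 library gave 2 to 10: 10 without light phase replicate 2, 4 without light phase replicate 1, 3 without light phase replicate 3 or 6 or dark phase replicate 4, and 2 without each of the other 7. Over the same fits the genes called in the whole table ranged from 1699 to 2281. The number of mitochondrial genes called ranged from 0 to 1 (MT-ND3, without dark phase replicate 2 or 4). ATP5F1C and UQCRFS1 were called in 23 of 24 alternatives, NDUFB9 in 13, CYC1 in 10 and NDUFA9 in 9, all 5 with the same sign throughout. The adjusted p ranged from 0.0016 to 0.35 for ATP5F1C and from 0.0061 to 0.25 for UQCRFS1, highest with the covariate. With the replicate block they were 0.038 and 0.020, and 1588 genes were called. Libraries of equal number share only the number: their deviations from the phase means correlated at -0.11 to 0.05, and none correlated best with its own number. Over all members and alternatives, 2112 values, no called difference had another sign than in the main fit, and 42 lost and 17 gained a call. A further 129 estimates had the other sign, with no call in the main fit or in the alternative concerned. The cause of these shifts was not tested. Depth in reads is unknown, so the precision of low values beyond the spread between rats cannot be given.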
